A study of Mus musculus with 12 samples.

Results

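The genes of glucose breakdown and the genes that cells switch on when oxygen is short were followed in mouse N2A neuroblastoma cells. The list named 36 genes, chosen by symbol: 16 glycolytic enzymes, 5 genes of sugar and lactate transport and of flux control, 14 other targets of the hypoxia response, and Hif1a. A probe set was used where it carried exactly 1 of these symbols, and where a gene had several the one with the largest interquartile range over the arrays was taken, so 33 of the 36 genes were measured among 19938 genes in all. Gpi1 and Eno1 were on no single-symbol probe set, and Gapdh lay only on 25 probe sets that it shared with other symbols. N2A cells were stably transfected with a hairpin plasmid and a hygromycin resistance plasmid, drug-resistant clones were expanded, and RNA was measured on 12 whole-transcript arrays. Control cells carried a non-targeting, scrambled hairpin, and KD cells carried a short hairpin RNA (shRNA) against the long non-coding RNA Dali. Both were sampled while proliferating in medium with 10% serum, or after 72 h in differentiation medium with 20 µM all-trans retinoic acid (RA), with 3 arrays in each of the 4 groups. The RA medium held 2% serum and the cells had been replated for it, so RA, serum and plating density cannot be told apart. The study describes several clonal KD lines and a control line, while the labels do not say which line an array came from, so the p-values measure the spread between these samples and may not cover the spread between clones. KD and differences between clones therefore cannot be told apart.

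Glycolysis turns glucose into pyruvate through a chain of cytosolic enzymes, and lactate dehydrogenase turns pyruvate into lactate, which leaves the cell through monocarboxylate transporters. When oxygen is scarce the prolyl hydroxylases of the Egln family no longer mark HIF-1α for the VHL ubiquitin ligase, and HIF-1α with its partner Arnt binds a short core motif near genes of glucose uptake, glycolysis, mitophagy, angiogenesis and collagen modification. This control acts mainly on the HIF-1α protein, so the Hif1a transcript need not move with its targets. Neuroblastoma lines such as N2A proliferate with active glycolysis and extend neurites when RA is given.

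The HIF core motif was read in the promoters of the genes on which the results turned. The motif letters were ACGTG and GCGTG, searched on both strands in the 250 bases before each RefSeq start (GRCm38.p6), and a match describes letters and not binding. CACGTG counts once on each strand, and other overlaps were counted as separate hits. Promoter windows are printed 5′ to 3′ on the strand of the gene, with motif letters in capitals. Bnip3 and Aldoc are shown because they had the largest changes with RA. Slc16a3 and Slc2a1 are shown because their RA responses differed between KD and control cells, Pgk1 because it fell by nearly the same amount in both, and Eno2 because it fell in both and its window held no motif. The windows were chr7:138909507-138909756, minus strand, for Bnip3, chr11:78322823-78323072, plus strand, for Aldoc, which is 1 of its 2 windows, chr11:120948817-120949066, plus strand, for Slc16a3, chr4:119108495-119108744, plus strand, for Slc2a1, chrX:106186850-106187099, plus strand, for Pgk1, and chr6:124769674-124769923, minus strand, for Eno2.
Bnip3: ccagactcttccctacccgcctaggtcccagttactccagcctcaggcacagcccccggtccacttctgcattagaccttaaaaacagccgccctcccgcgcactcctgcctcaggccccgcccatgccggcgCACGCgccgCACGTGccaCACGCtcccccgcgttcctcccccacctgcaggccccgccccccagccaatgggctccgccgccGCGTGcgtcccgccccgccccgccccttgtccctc
Aldoc: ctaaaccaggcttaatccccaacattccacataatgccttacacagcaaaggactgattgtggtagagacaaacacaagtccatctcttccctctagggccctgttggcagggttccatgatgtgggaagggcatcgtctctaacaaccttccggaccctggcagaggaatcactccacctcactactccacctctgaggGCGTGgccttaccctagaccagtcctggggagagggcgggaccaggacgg
Slc16a3: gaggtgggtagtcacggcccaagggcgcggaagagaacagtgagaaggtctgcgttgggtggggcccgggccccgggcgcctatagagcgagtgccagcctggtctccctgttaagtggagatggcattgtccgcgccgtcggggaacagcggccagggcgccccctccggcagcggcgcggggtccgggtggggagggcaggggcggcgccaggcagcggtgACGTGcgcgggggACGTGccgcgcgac
Slc2a1: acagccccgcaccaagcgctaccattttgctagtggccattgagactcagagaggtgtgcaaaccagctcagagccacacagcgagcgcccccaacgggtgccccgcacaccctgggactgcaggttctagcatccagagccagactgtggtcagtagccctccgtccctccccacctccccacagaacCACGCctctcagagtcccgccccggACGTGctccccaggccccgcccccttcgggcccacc
Pgk1: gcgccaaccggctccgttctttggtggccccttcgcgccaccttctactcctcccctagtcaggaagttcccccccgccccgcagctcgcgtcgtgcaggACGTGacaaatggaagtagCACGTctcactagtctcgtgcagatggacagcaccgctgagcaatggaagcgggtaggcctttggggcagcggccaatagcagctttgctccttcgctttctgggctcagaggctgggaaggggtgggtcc
Eno2: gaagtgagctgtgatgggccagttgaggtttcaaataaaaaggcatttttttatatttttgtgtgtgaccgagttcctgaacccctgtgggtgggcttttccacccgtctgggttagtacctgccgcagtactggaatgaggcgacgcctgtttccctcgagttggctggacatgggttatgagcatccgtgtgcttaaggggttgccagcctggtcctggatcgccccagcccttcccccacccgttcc
The Bnip3 window held 5 hits and the windows of Slc16a3, Slc2a1 and Pgk1 held 2 each, while the printed Aldoc window held 1, and Tpi1, like Eno2, had none. Of the 30 measured members with a window in the table, 28 (93.3%) had a hit in at least 1 window, against 7542 of 15012 measured protein-coding genes (50.2%). Counted by window, 35 of 46 member windows (76.1%) held a hit, against 46.5% of the 18488 windows of measured protein-coding genes and 38.6% of all 32851 windows in the table. Windows of glycolytic enzymes (16 of 22), of transport and flux genes (5 of 6) and of other hypoxia targets (13 of 17) held it at shares of 72.7%, 83.3% and 76.5%. Both motifs contain the dinucleotide CG, of which member windows held a median of 14 and those of measured genes 11. A gene counted if any of its windows held a hit, with 46 windows over 30 members and 18488 over 15012 measured genes. The parts of base composition and of the number of windows in these shares were not tested. Slc2a3, Bnip3l and Ndrg1 are named only, with no window. These shares give no p-value, since many members are on the list as known targets of HIF.

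The deposited values are log2 expression, already background-corrected and normalised between arrays, and array medians lay between 7.146 and 7.209. Correlations over all genes were at least 0.9965 inside a group and 0.9891 to 0.9949 across groups. No probe set was named for Dali (count 0), so these arrays give no check of the knockdown itself. The 9 measured markers of sympathoadrenal neuroblasts ranged from Dbh at the 56.2nd to Stmn2 at the 99.3rd percentile of gene levels. Their mean was 9.75 to 9.82 on the proliferating control arrays and 9.95 to 9.98 on the proliferating KD arrays, and 9.59 to 9.63 and 9.55 to 9.68 after RA. In proliferating cells 4 of these 9 markers were called higher in KD, where 3.96% of all genes tested were. After RA 1 was called lower and 1 higher in KD, where 4% and 3.71% of genes tested were. With RA 3 were called lower in control and 3 in KD cells, where 3.76% and 4.57% of genes tested were. The part of these markers in the results below was not tested. Markers of fibroblasts (6 measured) had means of 6.49 to 6.75, with single genes from Lum at the 3.1st to Col1a1 at the 57.1st percentile. The means of glia markers (4 of 6 measured) were 6.38 to 6.54 and those of immune and endothelial markers (7 measured) 6.09 to 6.33 on all arrays, and their highest genes were Mbp at the 42.5th and Cd68 at the 42.7th percentile. Of the fibroblast and glia markers 0 were called in the 4 comparisons of 2 groups by limma (at an unadjusted p under 0.05, 1 fibroblast marker was higher with RA in each kind of cell, and 1 glia marker lower in KD cells after RA in both comparisons that use those arrays), and 1 immune or endothelial marker was called lower with RA in each kind of cell.

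RA lowered many of the genes, and it did so in control and KD cells. Calls needed an adjusted p under 0.05 in limma (Benjamini-Hochberg) and at least a 1.3-fold change, or 0.379 on the log2 scale. In control cells 12 of the 33 measured genes were called lower with RA and 0 higher, where 3.76% and 5.58% of the genes tested were called lower and higher. In KD cells 12 were also called lower and 0 higher, where 4.57% and 5.37% of genes tested were. At an unadjusted limma p under 0.05, 24 genes were lower and 1 higher in control cells, and 23 lower and 3 higher in KD cells. The share of all genes past this unadjusted threshold was not counted for any comparison. Of the 33 genes, 29 passed the filter on spread and could be called, and Hk2, Car9, Kdm3a and Hif1a did not. The median change over all 33 was -0.30 in control and -0.24 in KD cells, against 0.00 and -0.02 over all genes. All 3 RA arrays lay below all 3 proliferating arrays for 26 of the 33 genes in control cells, where 16.9% of all genes did so, and for 24 in KD cells, where 21.2% did. All RA arrays were the higher ones for 1 gene in control cells (16.6% of all genes) and 4 in KD cells (13.5%). The 2 RA comparisons use different arrays, and 8 genes were called lower in both: Aldoc, Bnip3, Ddit4, Eno2, Pfkl, Pgk1, Slc2a3 and Tpi1. That is 66.7% of each list of 12, while the 206 genes shared among all genes called lower were 54.9% of the 375 in control and 45.2% of the 456 in KD cells. In these bulk samples less RNA per cell and fewer cells with a transcript cannot be told apart.

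**Figure D1:**
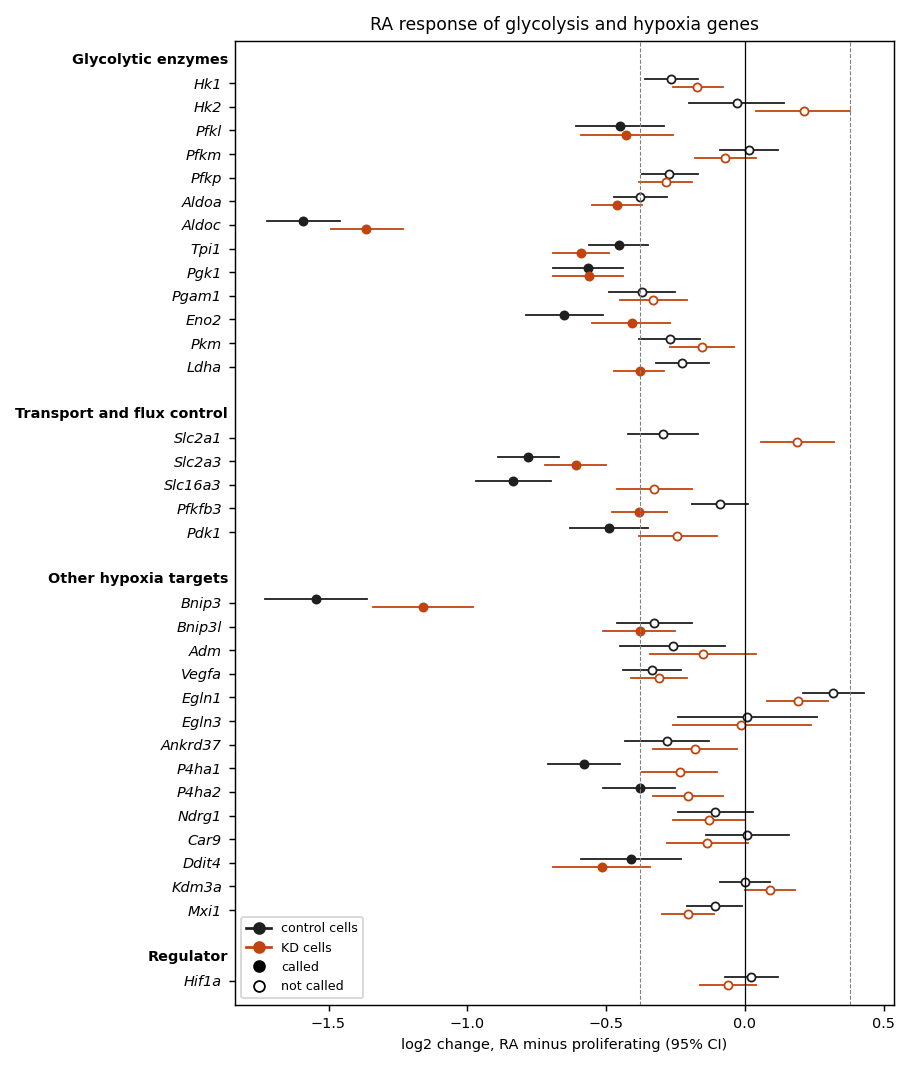
Change with RA of each of the 33 measured genes, on the log2 scale (RA minus proliferating), in control cells (black) and KD cells (orange); points are limma estimates from 3 against 3 arrays, bars 95% confidence intervals, filled points called genes, and dashed lines the 1.3-fold cutoff. Aldoc (-1.59 and -1.36) and Bnip3 (-1.55 and -1.16) stand far to the left of the other genes, and Slc2a1 lies at -0.30 in control cells and 0.19 in KD cells.

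Among glycolytic enzymes, 5 of the 13 measured were called lower with RA in control cells and 7 in KD cells, and 12 of 13 changes lay below 0 in each. Of the 13, 12 passed the filter on spread and could be called. Among all genes tested, 3.76% were called lower in control and 4.57% in KD cells. Aldoc, the aldolase isoform typical of brain, cleaves fructose bisphosphate. It read 9.06, 8.88 and 8.88 on the proliferating control arrays and 7.40, 7.32 and 7.31 after RA. In KD cells it read 8.38, 8.51 and 8.48 while proliferating and 7.07, 7.14 and 7.06 after RA. No array of a proliferating group reached down to an RA array, and the fall was 3.02-fold in control cells (-1.59 ± 0.06, SE on the log2 scale, limma adjusted p = 2.66e-08) and 2.57-fold in KD cells (-1.36 ± 0.06). Eno2, the neuronal enolase of the step before pyruvate kinase, read 9.67, 9.49 and 9.51 in proliferating and 8.86, 8.96 and 8.88 in RA-treated control cells. In KD cells its values were 9.24, 9.33 and 9.11 against 8.83, 8.79 and 8.84. The groups again did not overlap, and the log2 changes were -0.65 ± 0.06 and -0.41 ± 0.06. Without the second proliferating KD array, the Eno2 change in KD cells was -0.36 and below the cutoff.

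Tpi1 and Pgk1, which interconvert triose phosphates and make the first ATP of the payoff phase, fell in both kinds of cells. Tpi1 read 11.89, 11.88 and 11.89 in proliferating and 11.49, 11.41 and 11.40 in RA-treated control cells, and 11.73, 11.77 and 11.64 against 11.17, 11.09 and 11.11 in KD cells. The log2 changes were -0.45 ± 0.05 and -0.59 ± 0.05. The RA-treated KD arrays were thus the lowest of all 12. Pgk1 went from 11.77, 11.74 and 11.75 to 11.25, 11.12 and 11.21 in control cells, and from 11.60, 11.67 and 11.55 to 11.14, 11.02 and 10.96 in KD cells. Its log2 changes were -0.57 ± 0.06 and -0.56 ± 0.06, and its other 2 probe sets gave -0.57 and -0.56 in control cells. Of these 2, 1 had the same mean as the used set in all 4 groups, so they may not be separate measurements. Pfkl, the liver-type phosphofructokinase, was called lower at -0.45 ± 0.08 in control and -0.43 ± 0.08 in KD cells, the latter -0.37 without the third RA-treated KD array. Aldoa, the main aldolase of most tissues, was called lower in KD cells (-0.46 ± 0.04), and at -0.38 ± 0.04 in control cells (adjusted p = 3.23e-05) it stood just short of the 1.3-fold cutoff and was not called. Ldha, the lactate dehydrogenase subunit that favours lactate, was -0.38 ± 0.04 and called in KD cells, and -0.23 ± 0.04 in control cells (adjusted p = 0.00142). The Ldha call sat at the cutoff and was lost without the second proliferating KD array (-0.37), the second RA-treated KD array (-0.37) or the third (-0.35), and with arrays centred on their medians (-0.36).

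The other enzymes changed less than 1.3-fold with RA in both kinds of cells. Pgam1 (phosphoglycerate mutase) was -0.37 ± 0.06 in control and -0.33 ± 0.06 in KD cells, Pfkp (platelet-type phosphofructokinase) -0.27 ± 0.05 and -0.28 ± 0.05, and Pkm (pyruvate kinase) -0.27 ± 0.05 and -0.15 ± 0.05. Each of these had adjusted p-values under 0.05 in limma, from 0.000287 for Pgam1 in control cells to 0.0345 for Pkm in KD cells. Hk1, the hexokinase that commits glucose to the pathway in most cells, was -0.27 ± 0.04 and -0.17 ± 0.04. Its second probe set gave -0.10 in both. Pfkm, the muscle-type phosphofructokinase, was at 0.01 ± 0.05 and -0.07 ± 0.05 with adjusted p-values of 0.873 and 0.298. Hk2, the inducible hexokinase, was -0.03 ± 0.08 in control and 0.21 ± 0.08 in KD cells and did not pass the filter on spread.

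**Figure D2:**
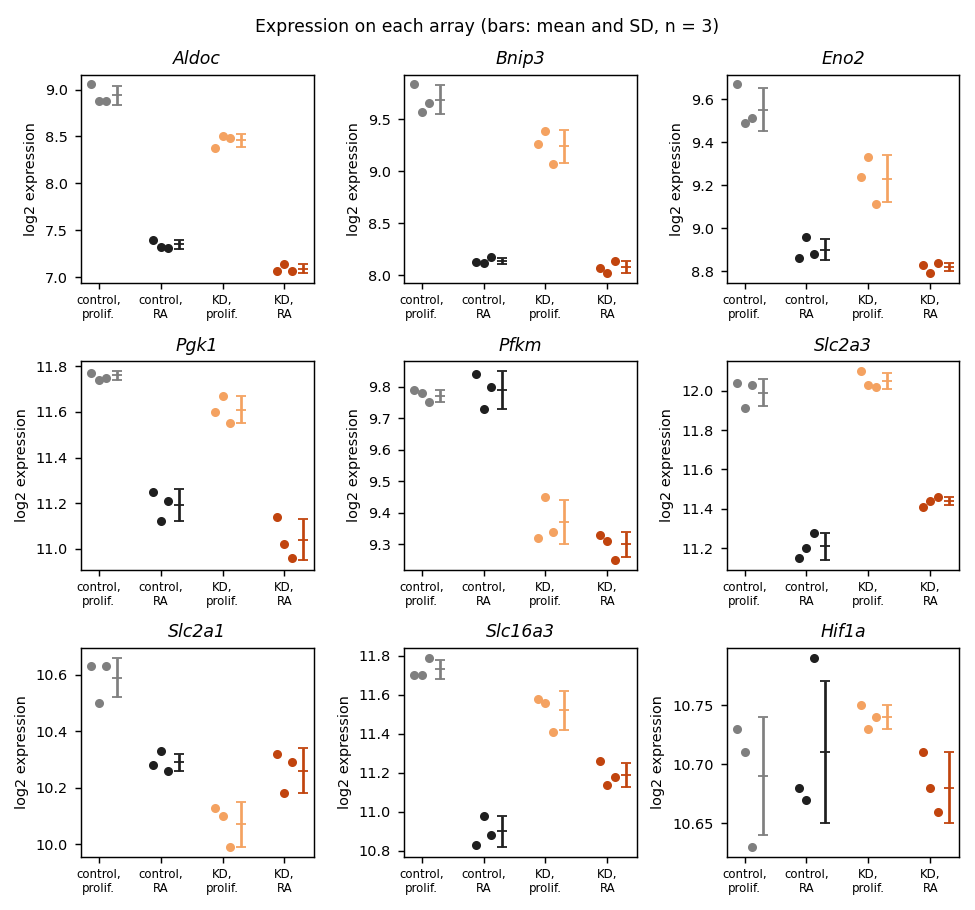
Log2 expression of 9 genes on each of the 12 arrays, with the mean and SD (n = 3) beside the points; grey and black are control cells proliferating and after RA, light and dark orange are KD cells proliferating and after RA, and each panel has its own axis. For Pfkm the KD arrays (9.25 to 9.45) lie below the control arrays (9.73 to 9.84) in both states, while Hif1a stays between 10.63 and 10.79.

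Transporters and flux control genes held some of the larger falls and both responses that differed between KD and control cells. In control cells 3 of the 5 were called lower with RA and in KD cells 2, where 3.76% and 4.57% of genes tested were. Slc2a3, the high-affinity glucose transporter GLUT3 of neurons, read 12.04, 11.91 and 12.03 in proliferating and 11.15, 11.20 and 11.28 in RA-treated control cells. In KD cells it read 12.10, 12.03 and 12.02, then 11.41, 11.44 and 11.46. It fell by 0.78 ± 0.05 on the log2 scale in control and by 0.61 ± 0.05 in KD cells, with no overlap of arrays. Slc16a3, the lactate exporter MCT4, went from 11.70, 11.70 and 11.79 to 10.83, 10.98 and 10.88 in control cells (-0.84 ± 0.06). In KD cells it went from 11.58, 11.56 and 11.41 to 11.26, 11.14 and 11.18, a change of -0.33 ± 0.06 that was under the 1.3-fold cutoff (adjusted p = 0.0013). Proliferating and RA arrays did not overlap in either kind of cell. Pdk1, the kinase that shuts pyruvate dehydrogenase and keeps pyruvate out of mitochondria, was called lower in control cells (-0.49 ± 0.06) and was -0.24 ± 0.06 in KD cells (adjusted p = 0.01). Pfkfb3, which makes the activator of phosphofructokinase, showed the other order, with -0.09 ± 0.05 in control cells (adjusted p = 0.156) and a called fall of 0.38 ± 0.05 in KD cells. That Pfkfb3 change was under the cutoff without the second proliferating KD array (-0.35), with arrays centred on their medians (-0.36) and with quantile normalisation repeated (-0.35).

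Slc2a1, the widespread glucose transporter GLUT1, did not follow Slc2a3. In control cells it read 10.63, 10.50 and 10.63 while proliferating and 10.28, 10.33 and 10.26 after RA, a log2 change of -0.30 ± 0.06. In KD cells it read 10.13, 10.10 and 9.99, then 10.32, 10.18 and 10.29, a change of 0.19 ± 0.06. Every RA array was thus lower than every proliferating array in control cells and higher in KD cells, with limma adjusted p-values of 0.00193 and 0.0228, and neither change reached 1.3-fold.

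Of the 14 other hypoxia targets 4 were called lower with RA in control cells and 3 in KD cells, where 3.76% and 4.57% of genes tested were. Of the 14, 12 passed the filter on spread and could be called. Bnip3, a mitochondrial protein of mitophagy and cell death, read 9.84, 9.57 and 9.66 in proliferating and 8.13, 8.12 and 8.18 in RA-treated control cells, and 9.26, 9.39 and 9.07 against 8.07, 8.02 and 8.14 in KD cells. No RA array overlapped a proliferating array, and the changes were 2.92-fold in control (-1.55 ± 0.08) and 2.23-fold in KD cells (-1.16 ± 0.08). The size rests on the probe set: the other Bnip3 probe set changed by -0.89 and -0.50, and the mean of both by -1.215 and -0.829. Its relative Bnip3l, also a mitophagy receptor, read 11.62, 11.40 and 11.43 against 11.12, 11.18 and 11.17 in control cells, and 11.27, 11.25 and 11.14 against 10.79, 10.88 and 10.85 in KD cells. RA and proliferating arrays did not overlap, and the changes were -0.33 ± 0.06, not called (adjusted p = 0.0014), and -0.38 ± 0.06, called. That call sat at the cutoff: it was -0.35 without the first and -0.36 without the second proliferating KD array, -0.36 without the first RA-treated KD array, -0.34 with the mean of both probe sets, and -0.36 with centred arrays, with repeated quantile normalisation and with array weights. P4ha1, a collagen prolyl hydroxylase subunit, was called lower in control cells (-0.58 ± 0.06) and was -0.24 ± 0.06 in KD cells (adjusted p = 0.0084). P4ha2, its relative, was -0.38 ± 0.06 and called in control cells, and -0.20 ± 0.06 in KD cells (adjusted p = 0.0154). Leaving out the first proliferating control array or the first or second RA-treated control array put P4ha2 at -0.35, -0.37 and -0.37, under the cutoff, as did centring the arrays (-0.372) and array weights (-0.375). Ddit4, an inhibitor of mTORC1, was called lower in both (-0.41 ± 0.08 and -0.52 ± 0.08), and in control cells it was -0.36 without the second proliferating array and -0.38 without the third RA array, under the cutoff.

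The other 9 hypoxia targets and Hif1a changed by less than 1.3-fold with RA. Vegfa, the vascular growth factor, was -0.33 ± 0.05 and -0.31 ± 0.05, below the cutoff though all RA arrays were lower in both kinds of cells. Ankrd37 was -0.28 ± 0.07 and -0.18 ± 0.07, Adm (adrenomedullin) -0.26 ± 0.09 and -0.15 ± 0.09, Mxi1 (an antagonist of Myc) -0.11 ± 0.04 and -0.20 ± 0.04, and Ndrg1 -0.11 ± 0.06 and -0.13 ± 0.06. Car9, a membrane carbonic anhydrase, was at 0.01 ± 0.07 and -0.14 ± 0.07, and Kdm3a, a histone demethylase, at 0.00 ± 0.04 and 0.09 ± 0.04. Egln1 (PHD2), the hydroxylase that marks HIF-1α in most cells, went the other way, with 9.39, 9.33 and 9.24 against 9.69, 9.65 and 9.58 in control cells and 9.36, 9.44 and 9.46 against 9.63, 9.62 and 9.59 in KD cells. The RA arrays were higher in both, by 0.32 ± 0.05 (adjusted p = 0.000459) and 0.19 ± 0.05 (adjusted p = 0.00997), under 1.3-fold. Car9, Egln3, Adm and Pdk1, which was called lower in control cells, had log2 values of 5.50 to 6.97 on all arrays, and the deposited values do not show whether such levels lie above background. Egln3 (PHD3) was at 0.01 ± 0.11 and -0.01 ± 0.11. Hif1a itself differed by 0.02 ± 0.05 in control and -0.06 ± 0.05 in KD cells, with 95% confidence intervals of -0.07 to 0.12 and -0.16 to 0.04.

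Glycolytic enzymes and other hypoxia targets were set side by side by their counts and medians. With RA the median change of the enzymes was -0.37 in control and -0.38 in KD cells, and that of the other hypoxia targets -0.27 and -0.19, while transport and flux genes had -0.49 and -0.33. Changes lay below 0 for 12 of 13 enzymes in each kind of cell, and for 10 and 12 of the 14 other hypoxia targets, against 49% and 54.7% of all genes. Both lists held 1 gene with a change far beyond the rest (Aldoc and Bnip3). In control cells the enzymes ranged from -1.59 to 0.01 and the other hypoxia targets from -1.55 to 0.32. In KD cells the ranges were -1.36 to 0.21 and -1.16 to 0.19. The difference between the lists was not tested. Each gene was also set against its own mean over the 12 arrays. For the enzymes the median of these deviations was 0.178 to 0.235 on proliferating and -0.194 to -0.135 on RA-treated control arrays, and 0.149 to 0.211 and -0.266 to -0.191 on the KD arrays. For the other hypoxia targets it was 0.113 to 0.180 and -0.080 to -0.043 on control arrays, and 0.003 to 0.105 and -0.180 to -0.081 on KD arrays. Proliferating and RA arrays did not overlap in either list.

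**Figure D3:**
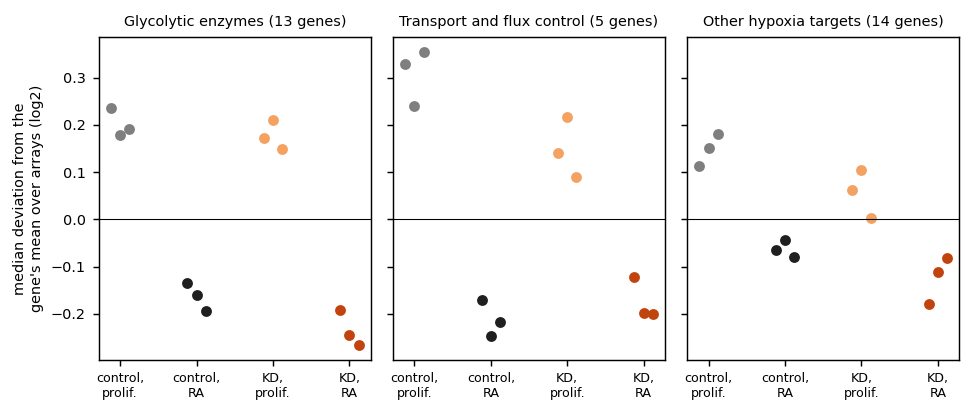
Median deviation of each list from its genes' means over the 12 arrays (log2 scale), 1 point per array and 3 per group, for 13 glycolytic enzymes, 5 transport and flux genes and 14 other hypoxia targets; colours are those of the 4 groups. In each panel all RA arrays lie below 0 and all proliferating arrays above it.

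In proliferating cells 4 of the 33 genes were called lower in KD and 0 higher, where 3% and 3.96% of genes tested were. At an unadjusted limma p under 0.05, 16 were lower and 2 higher. The 4 were Slc2a1 (-0.51 ± 0.06, adjusted p = 6.86e-05), Aldoc (-0.48 ± 0.06), Bnip3 (-0.45 ± 0.08) and Pfkm (-0.40 ± 0.05). The Slc2a1 values of 10.13, 10.10 and 9.99 in KD cells all lay below 10.50, the lowest of the proliferating control arrays. The 3 KD arrays of Aldoc and Bnip3 given above were likewise lower than every control array in that state. The Bnip3 call depended on single arrays, with -0.38 without the first control array and -0.37 without the third KD array, both under the cutoff. The other Bnip3 probe set gave -0.35, also under the cutoff, and the mean of both gave -0.399 and was called. Pfkm read 9.32, 9.45 and 9.34 in KD and 9.79, 9.78 and 9.75 in control cells. Eno2 had the next largest difference (-0.33 ± 0.06, adjusted p = 0.00215), with no overlap of arrays and less than 1.3-fold. The KD arrays were lower than all control arrays for 17 of the 33 genes, where 19.0% of all genes had that order, and higher for 7, where 19.7% did. Median changes were -0.15 for the enzymes, -0.19 for transport and flux genes and -0.07 for the other hypoxia targets, against -0.01 over all genes.

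After RA only Pfkm was called, lower in KD cells by 0.49 ± 0.05 (limma adjusted p = 3.12e-05), so 1 of 33 genes was called lower and 0 higher, where 4% and 3.71% of genes tested were. At an unadjusted limma p under 0.05, 10 were lower and 7 higher. Pfkm read 9.33, 9.31 and 9.25 in KD against 9.84, 9.73 and 9.80 in control cells. The difference had thus the same direction and about the same size in both states. The 2 KD comparisons share no array, but the labels do not say whether they share lines. KD and a difference between clones at Pfkm cannot be told apart. The other 4 largest differences after RA were under 1.3-fold: Bnip3l at -0.32 ± 0.06, Tpi1 at -0.31 ± 0.05, Pkm at 0.29 ± 0.05 and Slc16a3 at 0.29 ± 0.06. Pkm read 11.11, 10.98 and 10.98 in KD against 10.77, 10.68 and 10.74 in control cells after RA, and 11.21, 11.19 and 11.13 against 11.02, 10.94 and 11.03 while proliferating (0.18 ± 0.05). Pkm was thus higher on every KD array in each state, and both of its probe sets gave differences of 0.18 to 0.29. Slc2a1, Bnip3 and Aldoc, called in proliferating cells, differed after RA by -0.03 ± 0.06, -0.06 ± 0.08 and -0.26 ± 0.06, with adjusted p-values of 0.766, 0.599 and 0.00549. Whether these differences changed with the state is taken up with the interactions below. KD arrays were lower than all control arrays for 12 of the 33 genes after RA, where 19.5% of all genes were so ordered, and higher for 6, where 14.5% were. The median change over the 33 was -0.05 against -0.03 over all genes.

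**Figure D4:**
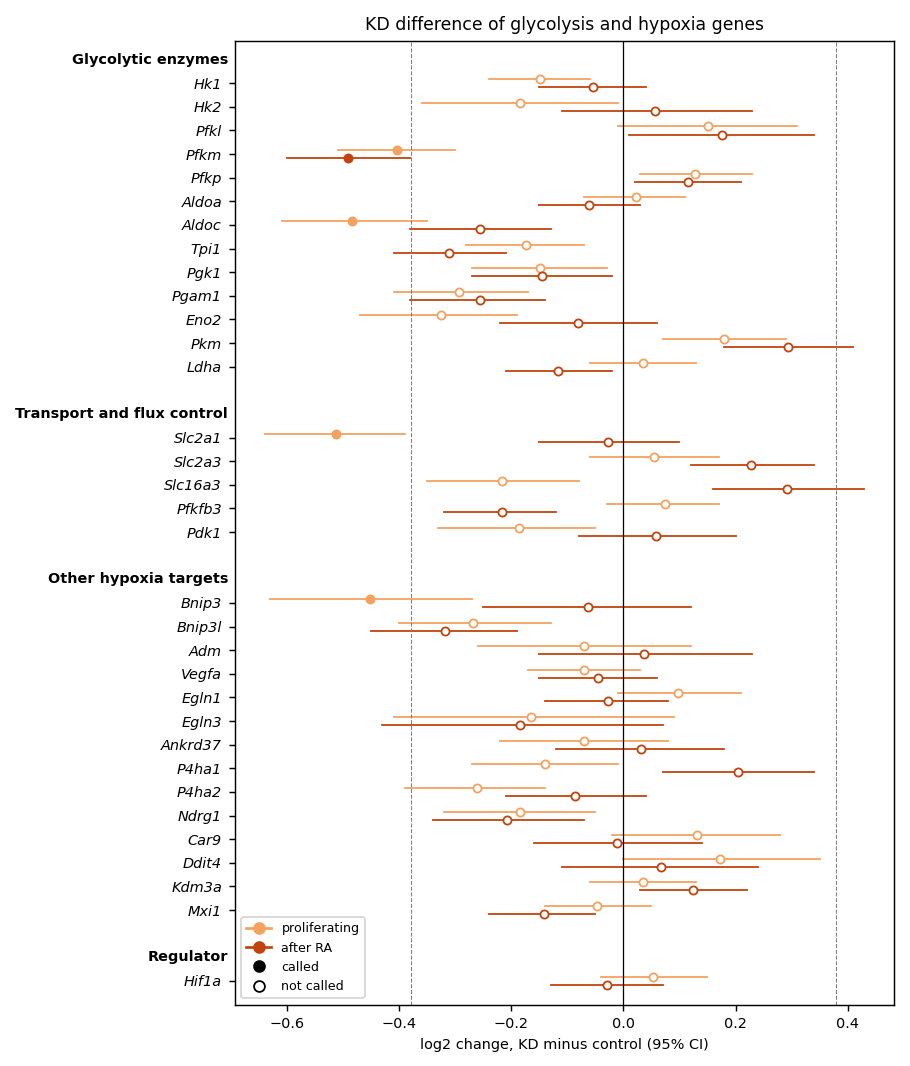
Difference between KD and control cells for each of the 33 measured genes on the log2 scale (KD minus control), in proliferating cells (light orange) and after RA (dark orange); points are limma estimates from 3 against 3 arrays, bars 95% confidence intervals, filled points called genes, and dashed lines the 1.3-fold cutoff. Pfkm is called in both states (-0.40 and -0.49), while Slc2a1, Aldoc and Bnip3 are called in proliferating cells.

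The KD changes of neighbouring genes on the chromosome were read beside these differences. The 50 nearest measured genes of Pfkm, 25 on each side, had a median KD change of -0.10 in both states. Of the 50, 39 and 36 lay below 0, where 53.6% and 58.5% of all genes did. The medians over all genes were -0.01 and -0.03. The part of this shift in the Pfkm difference was not tested. For Slc2a1 the median of the neighbours was -0.01 in proliferating cells, for Aldoc 0.01 and for Bnip3 0.04, so the neighbours of these 3 did not share their falls in proliferating cells. Ndrg1, at -0.18 ± 0.06 and -0.21 ± 0.06, had neighbours at -0.08 and -0.11.

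The RA responses of KD and control cells were compared by the interaction, which is the RA change in KD cells less the RA change in control cells. It was called higher for 2 of the 33 genes and lower for 0, where 0.492% and 0.752% of genes tested were called higher and lower; at an unadjusted limma p under 0.05, 9 were higher and 2 lower. The 2 were Slc16a3 (0.51 ± 0.09, adjusted p = 0.0187) and Slc2a1 (0.49 ± 0.08, adjusted p = 0.0187). Both encode membrane transporters of the pathway's ends, glucose entry and lactate exit. Their relatives were not called: Slc2a3 had an interaction of 0.17 ± 0.07 (limma adjusted p = 0.241). Slc16a1 had 0.03 ± 0.06 and did not pass the filter on spread. For Slc16a3 the proliferating KD arrays were below and the RA-treated KD arrays above the matching control arrays. For Slc2a1 the proliferating KD arrays were below every control array of that state and the RA arrays overlapped. Without the third RA-treated control array the values were 0.50 and 0.47 and both adjusted p-values 0.0509, so neither was called. Pfkfb3 had an interaction of -0.29 ± 0.07 (adjusted p = 0.0432) that was under 1.3-fold, and P4ha1 one of 0.34 ± 0.08 (adjusted p = 0.0601). Of the genes called in only 1 of the RA comparisons, Pdk1 (0.24 ± 0.09), P4ha2 (0.18 ± 0.08), Aldoa (-0.08 ± 0.06), Ldha (-0.15 ± 0.06) and Bnip3l (-0.05 ± 0.09) had interaction adjusted p-values of 0.191 to 0.821, so a difference in their RA response was not shown. Bnip3 (0.39 ± 0.12) and Aldoc (0.23 ± 0.08), called lower in KD only while proliferating, had limma interaction adjusted p-values of 0.12 and 0.189. For these 2 a change of the KD difference with the state was not shown. Median interactions were 0.02 for the enzymes, 0.24 for transport and flux genes and 0.00 for the other hypoxia targets, against -0.02 over all genes.

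Close relatives on the list did not always move alike. Of the aldolases, Aldoc fell by 1.59 ± 0.06 on the log2 scale with RA in control cells, and Aldoa was at -0.38 ± 0.04, not called. Of the phosphofructokinases, Pfkl fell by 0.45 ± 0.08, while Pfkp was at -0.27 ± 0.05 and Pfkm at 0.01 ± 0.05, neither called. KD differences after RA were -0.49 ± 0.05 for Pfkm, 0.18 ± 0.08 for Pfkl and 0.12 ± 0.05 for Pfkp, the latter pair not called. Slc2a3 fell by 0.78 ± 0.05 with RA in control cells, where Slc2a1 was at -0.30 ± 0.06 and not called. Bnip3 and Bnip3l were at -1.55 ± 0.08 and -0.33 ± 0.06, Egln1 and Egln3 at 0.32 ± 0.05 and 0.01 ± 0.11, P4ha1 and P4ha2 at -0.58 ± 0.06 and -0.38 ± 0.06, and Hk1 and Hk2 at -0.27 ± 0.04 and -0.03 ± 0.08. The difference between relatives was not tested, and neither was hybridisation of a transcript to its relative's probes.

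Of the 16 measured genes of the HIF machinery (partners, hydroxylases, the VHL complex and coactivators), 9 passed the filter on spread and could be called. In either RA comparison 0 were called by limma. Among all genes tested, 3.76% were called lower and 5.58% higher in control cells, and 4.57% and 5.37% in KD cells. At an unadjusted limma p under 0.05, 2 of the 16 were lower and 6 higher in control cells, and 4 lower and 1 higher in KD cells. Arnt, the partner of HIF-1α, changed by -0.29 ± 0.05 and -0.31 ± 0.05 with RA, under 1.3-fold, and Epas1 (HIF-2α) by 0.10 ± 0.08 and 0.00 ± 0.08. Siah1a, a ubiquitin ligase that acts on the Egln hydroxylases, was called higher in KD cells in both states (0.38 ± 0.09 and 0.46 ± 0.09). Of 34 further genes of glucose use, 13 passed the filter on spread and could be called. With RA 1 was called higher and 0 lower in control cells, where 5.58% and 3.76% of genes tested were. In KD cells 1 was called higher and 1 lower, where 5.37% and 4.57% were. At an unadjusted limma p under 0.05, 3 of the 34 were higher and 6 lower in control cells, and 2 higher and 9 lower in KD cells. The rise was that of Pygl, a glycogen phosphorylase, by 0.57 ± 0.04 and 0.92 ± 0.04. Mpc1, a subunit of the mitochondrial pyruvate carrier, fell with RA in KD cells (-0.43 ± 0.06) and was the only one of the 34 called between KD and control cells, lower after RA (-0.56 ± 0.06). The median change of these 34 with RA was 0.00 in both kinds of cells.

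Of 31 further hypoxia targets 20 passed the filter on spread and could be called. With RA 7 were called lower and 3 higher in control cells, and 4 lower and 1 higher in KD cells. The medians over all 31 were -0.04 and -0.05. Of all genes tested, 3.76% were called lower and 5.58% higher in control cells, and 4.57% and 5.37% in KD cells. At an unadjusted limma p under 0.05, 12 of the 31 were lower and 5 higher in control cells, and 12 lower and 4 higher in KD cells. Nrn1, a neurite-promoting surface protein, fell by 0.93 ± 0.05 in control cells, and in KD cells it fell by 1.07 ± 0.05. Car12, a membrane carbonic anhydrase, was at -0.70 ± 0.06 and -0.76 ± 0.06, Ak4, a mitochondrial adenylate kinase, at -0.48 ± 0.06 and -0.61 ± 0.06, and Fam162a at -0.48 ± 0.08 and -0.55 ± 0.08, all called. Plod2, a collagen lysyl hydroxylase, was called lower in control cells (-0.57 ± 0.07) and was -0.27 ± 0.07 in KD cells. Ccng2, an atypical cyclin, rose in both (0.56 ± 0.06 and 0.54 ± 0.06), while Tfrc, the transferrin receptor, and Sap30 rose in control cells (0.56 ± 0.09 and 0.47 ± 0.07). Between KD and control cells Car12 was called higher in both states (0.56 ± 0.06 and 0.50 ± 0.06), and Tfrc lower after RA (-0.54 ± 0.09).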

How the data were processed

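Total RNA was hybridised to 12 Affymetrix whole-transcript arrays, 1 per sample. The deposited log2 values were made by the authors with RMA background correction, quantile normalisation and gene-level summary; RMA and limma are named in the submitters' processing notes, without versions. Such values show relative levels only, and the number of arrays limits precision. Of 35556 probe sets 21789 carried 1 symbol, 1621 several and 12146 none here, and 21698 were matched to RefSeq by gene identifier. Each of 19938 genes was represented by its probe set of largest interquartile range, a choice that favours the more variable one. The study's methods name a variance cutoff of 0.5 for genes of little variation, read here as the 0.5 quantile of the interquartile range over all 12 arrays, which left 9969 genes. All 12 arrays entered 1 limma 3.58.1 fit of 4 group means in R 4.3.3 (lmFit, 5 contrasts, eBayes), with calls at an adjusted p under 0.05 (Benjamini-Hochberg) and a 1.3-fold change; tests are two-sided, and errors are limma standard errors. The members and lists were chosen with earlier results of these data known, so lists are described by counts and medians with no test. Genes given array by array were the 5 with the largest change in each comparison of 2 groups and those with a called interaction. All other list genes were named by call, with at most 4 per list, direction and comparison. Promoter windows are from RefSeq (GRCm38.p6). The alternatives covered the filter, cutoff, probe set choice, scaling, replicate block, array weights, variance trend, the arrays in the fit and each array left out.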

Additional observations from a re-analysis of the deposited data

Results flagged for a closer look

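The RA response of 2 transporter genes differed between KD and control cells in the test of that difference, the interaction in limma. For Slc16a3 the RA change in KD cells less that in control cells was 0.509 on the log2 scale (changes of -0.33 and -0.84, adjusted p = 0.0187). For Slc2a1 it was 0.486 (changes of 0.19 and -0.30, adjusted p = 0.0187), with RA arrays above all proliferating arrays in KD cells and below them in control cells. Neither passed the test without the third RA-treated control array.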

How the results depend on the processing

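Settings other than the 1.5-fold cutoff numbered 22. Of the 31 calls of single members, 21 kept direction and call in each of these that tested the gene. The other 10 lost the call in at least 1, and 0 reversed. A setting whose filter left a gene out was not counted as a loss. The filter on level left out Pdk1 (mean 6.192, against a median of 7.36 over genes), and 11 members were then called lower with RA in control cells. Interactions were not fitted with only the groups compared. The fold cutoff mattered most for the counts. Without it, the members called lower and higher were 13 and 2 for KD in proliferating cells, 8 and 4 for KD after RA, 23 and 1 for RA in control cells, and 22 and 2 for RA in KD cells, and 1 interaction was called lower. At 1.5-fold the counts of lower members were 0, 0, 5 and 4 in the same order, and 0 interactions were called higher. The share of all genes called was not counted in any setting other than the main one. Leaving out 1 array at a time gave 0 to 3 interactions called higher, with 0 without the third RA-treated control array, and 8 to 13 members lower with RA in KD cells, with 8 without the second proliferating KD array. With arrays centred on their medians, 9 in place of 12 members were lower with RA in KD cells. Quantile normalisation repeated on the deposited values moved the median RA change of the enzymes in control cells to -0.317. The median interaction of the other hypoxia targets, 0.002, ranged from -0.018 to 0.064 when 1 array was left out, with 0.057 without the second proliferating control array and 0.064 without the first RA-treated KD array; the cause was not tested. Arrays with the same replicate number deviated together with correlations of -0.088 to 0.215, and the array of the same number correlated best in 14 of 36 cases, so the numbers were not read as pairs. With the replicate block the RA counts stayed at 12 and 12 and no call of a member was lost.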
